A study of Mus musculus with 2 samples.

Results

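Collagen chain genes code for the polypeptides that wind around each other to form collagen molecules. They were taken as every protein-coding gene of the deposited table whose symbol is Col, a number, a and a number. This gave 44 of 54532 genes, namely 11 fibrillar chains, 6 chains of basement membrane collagen (type IV) and 27 chains of other types. The study compared macrophages of dyslipidemic mice with 2 syndromes of Traditional Chinese medicine, phlegm-dampness retention (PDR) and spleen and kidney Yang deficiency (SKYD), by RNA sequencing. All mice were male ApoE-/- mice on C57BL/6J, labelled as 6 weeks of age, and lack apolipoprotein E, which clears lipoproteins from blood. PDR mice received 4 weeks of high-fat diet. SKYD mice received propylthiouracil, a drug that blocks thyroid hormone synthesis, by gavage at 10 mg/kg per day for 4 weeks, and high-fat chow for the next 2 weeks. Aortas were digested with trypsin, cells were sorted on the surface proteins of Adgre1, a gene of mouse macrophages, and Itgam (CD11b), and each library was made from a pool of 5 mice. With 1 library per group, no difference given here has a replicate check. The syndrome, the drug, the time on the diet and the age of the mice cannot be told apart.

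In a collagen molecule 3 chains form a triple helix, which needs a glycine at 1 of every 3 residues. Fibrillar collagens (types I, III and V among them) assemble into the fibrils that carry load in the wall of an artery, type IV forms the sheet of basement membranes, and other types decorate fibrils, form beaded filaments or span the cell membrane. In the artery they are known mainly as products of smooth muscle cells and fibroblasts, while macrophages are better known for breaking collagen down and taking it up. Chains are hydroxylated and folded in the endoplasmic reticulum, trimmed at their ends, and cross-linked outside the cell.

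The repeat of glycine codons can be read in the genes themselves, and it is shown here for the 3 chains with the most reads. Each line is the first inner coding exon of 54 bases in which 1 of every 3 codons, in register, is a glycine codon, in the GENCODE vM21 transcript with the longest coding sequence. Capitals mark the glycine codons (GGN), 6 in each exon. The exons lie at chr1:45325360-45325413 (+ strand) for Col3a1, at chr6:4515481-4515534 (+ strand) for Col1a2 and at chr10:77067379-77067432 (- strand) for Col18a1, all in GRCm38.
Col3a1: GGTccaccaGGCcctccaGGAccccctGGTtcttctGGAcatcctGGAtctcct
Col1a2: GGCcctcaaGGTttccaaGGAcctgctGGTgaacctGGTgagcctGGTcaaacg
Col18a1: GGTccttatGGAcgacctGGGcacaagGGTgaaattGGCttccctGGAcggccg
Exons of this length were common in the family, and 40 of the 44 genes had at least 1 among their inner coding exons. Of 1917 inner coding exons of the 44 genes, 469 (24.5%) had 54 bases, against 697 of 156937 (0.444%) in 21822 other protein-coding genes. Lengths that are a multiple of 9 bases, which keep the repeat in frame, made up 63.8% of collagen exons and 13.7% of the others. Fibrillar chains held 305 of the 469, or 48.6% of their inner coding exons, against 15.1% in other types and 4.23% in basement membrane chains. Single chains differed too, with 24 of 49 inner coding exons of 54 bases in Col3a1, 24 of 50 in Col1a2, 3 of 39 in Col18a1, 2 of 50 in Col4a1 and 0 of 11 in Col26a1.

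The deposited values are FPKM, which is reads scaled by the length of the gene and the size of the library. Multiplied by gene length they were whole multiples of the worth of 1 read, within 0.05 reads for 100% of genes above 0 in each library, so reads were recovered. They sum to 23086889 reads on genes for PDR and 25427863 for SKYD. Ratios are PDR over SKYD in FPKM, with 95% exact (Clopper-Pearson) intervals from how reads split between the libraries. These intervals hold counting error alone and leave out variation among mice. Where a gene had 0 reads, the 3 reads that such a count allows served as the floor of a ratio. Such a bound, given as "at least", takes the reads of the other library as counted. It is thus higher than the lower limit of the exact interval, which for 0 and 11 reads is 2.36-fold in place of 3.45-fold. Genes with at least 10 reads in both libraries together were compared, and a ratio beyond 2-fold was counted.

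Collagen chains were rare in both libraries and rarer in PDR. Together the 44 genes had 385 PDR reads and 949 SKYD reads. This was 16.7 reads per 1000000 reads on genes in PDR (exact binomial 95% CI 15.1 to 18.4) and 37.3 in SKYD (95% CI 35.0 to 39.8). The summed reads were 2.32-fold higher in SKYD (95% CI 2.06 to 2.61), a log2 ratio of -1.21 (95% CI -1.39 to -1.04). In bulk samples such as these, fewer cells of a type and less RNA per cell cannot be told apart. No chain reached a mean FPKM of 1, whereas 8795 of 22046 protein-coding genes did. Col3a1 in SKYD was the 1 value of a chain at or above 1 FPKM.

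Of the 44 chains, 18 had at least 10 reads in both libraries together, 12 had 1 to 9, and 14 had 0 in both. Reads were found on 18 chains in PDR and on 26 in SKYD, with 14 chains in both, 4 in PDR alone and 12 in SKYD alone. Of the 30 chains with reads, 40.0% thus had them in SKYD alone and 13.3% in PDR alone. Of the 21718 genes with reads in either library, the shares were 18.3% and 5.61%. More of these genes were found in SKYD (20499) than in PDR (17738). A gene with few reads, as most chains were, is more readily at 0 in 1 library. No share matched for reads is given, so these percentages are not read as a result about the chains. Among the 18 chains with at least 10 reads, 13 (72.2%) were beyond 2-fold higher in SKYD, where 18.4% of 16703 genes with at least 10 reads were. In the other direction the count was 1 (5.56%), against 15.0% of the same genes. Genes with few reads pass 2-fold more often, and among the 9413 genes with 10 to 500 reads, a range chosen after the data were seen that holds all 18 chains, 27.7% were beyond 2-fold higher in SKYD and 20.5% higher in PDR. The median log2 ratio of the 18 chains was -1.64, and that of all genes with at least 10 reads was -0.04. A stricter count, of intervals that lie wholly beyond 2-fold, held 8 chains higher in SKYD against a background of 11.6%, and 0 higher in PDR against 8.55%. Beyond 4-fold by ratio there were 5 chains higher in SKYD (27.8%) against 1503 of the 16703 genes, and 0 higher in PDR against 1131 of them (6.77%). The 8 with intervals wholly beyond 2-fold were Col1a1, Col1a2, Col4a2, Col6a2, Col8a1, Col12a1, Col16a1 and Col27a1. Of these, Col8a1, Col12a1, Col16a1 and Col27a1 had 0 reads in PDR and passed the filter of 10 reads through SKYD alone. A gene with 0 reads in 1 library that passes this filter is always beyond 2-fold, by ratio and by interval. Its call adds nothing to its passing the filter, and this holds for the genes of the background too.

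**Figure D1:**
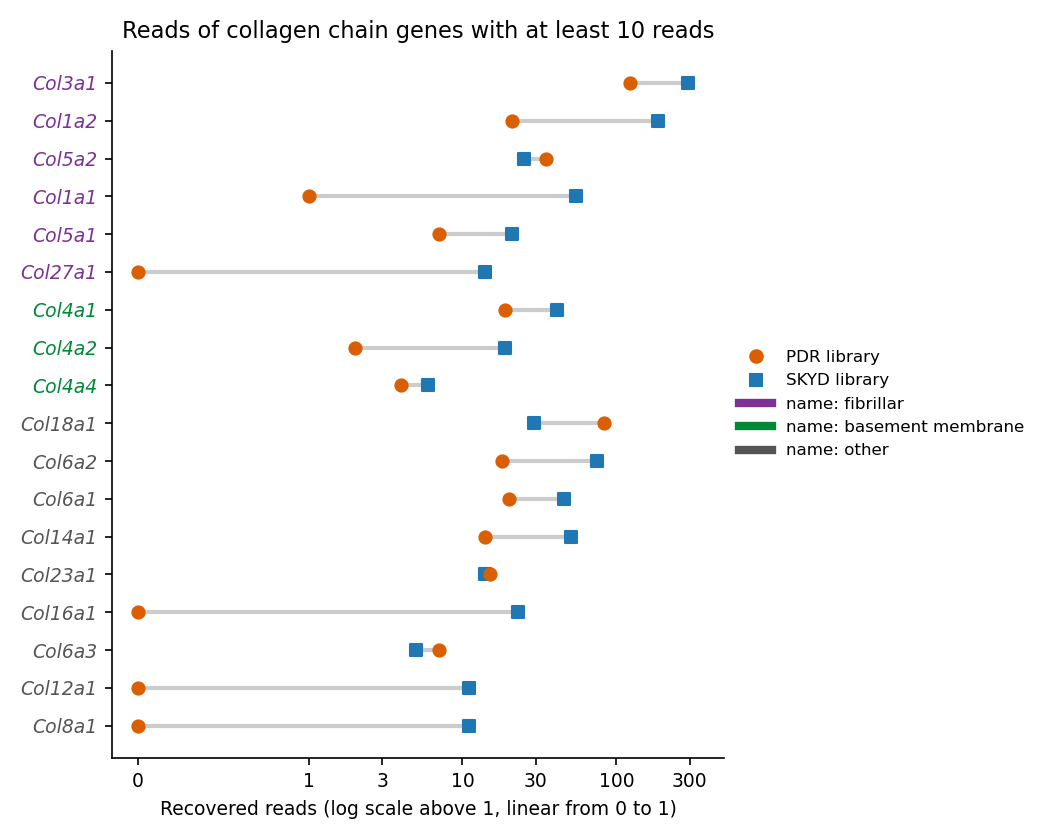
Recovered reads of the 18 collagen chain genes with at least 10 reads in both libraries together, with the PDR library as circles and the SKYD library as squares; the axis is logarithmic above 1 read and linear from 0 to 1. Names are coloured by class. Col18a1, Col5a2, Col23a1 and Col6a3 have more reads in PDR, the other 14 chains have more in SKYD, and 4 chains have 0 reads in PDR.

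Fibrillar chains held most collagen reads, 196 of 385 in PDR (50.9%) and 595 of 949 in SKYD (62.7%). Their sum was 2.85-fold higher in SKYD (95% CI 2.42 to 3.37). Col3a1 (ENSMUSG00000026043, chr1:45311538-45349706 in GRCm38), the chain of type III collagen in elastic tissues such as arteries, was the most read chain of both libraries. It had 122 reads in PDR and 291 in SKYD, or 0.529 and 1.19 FPKM, a log2 ratio of -1.16 (95% CI -1.48 to -0.85). The interval spans 2-fold and does not reach 0.

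Col1a2 (ENSMUSG00000029661, chr6:4504814-4541544), the alpha 2 chain of type I collagen, had 21 reads in PDR and 187 in SKYD. Its FPKM was 0.0720 and 0.602, and it was 8.37-fold higher in SKYD (95% CI 5.32 to 13.8). Col1a1 (ENSMUSG00000001506, chr11:94936224-94953042) codes for the alpha 1 chain of the same molecule. Its 1 read in PDR and 55 in SKYD gave a ratio of 51.7 in favour of SKYD, with an interval from 8.90 to 2078 that the single PDR read makes wide. Both type I chains thus lay far beyond 2-fold, and their intervals overlap.

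The type I molecule holds 2 alpha 1 chains and 1 alpha 2 chain. In SKYD the FPKM of Col1a1 was 0.557 times that of Col1a2 (95% CI 0.405 to 0.756), and in PDR it was 0.0902 times (95% CI 0.00218 to 0.561). Col1a1 was therefore the lower of the pair per length in both libraries. The deposited length of Col1a2 is 12426 bases, 2.32 times that of its main coding transcript, and that of Col1a1 is 6563 bases, 1.11 times. Divided by transcript length instead, a choice made after the data were seen, the values in SKYD were 1.40 for Col1a2, 0.371 for Col1a1 and 2.09 for Col3a1, which left the order of the 3 chains as it was. Col3a1 exceeded Col1a2 by 7.35 times in FPKM in PDR (95% CI 4.60 to 12.3) and by 1.97 times in SKYD (95% CI 1.63 to 2.38), and these intervals do not overlap.

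Of the type V chains, which start fibrils and limit their width, Col5a1 was beyond 2-fold higher in SKYD and Col5a2 was not. Col5a2, beside Col3a1 on chromosome 1, had 35 reads in PDR and 25 in SKYD, a log2 ratio of 0.58 (95% CI -0.21 to 1.38) whose interval includes 0. Col5a1, its partner in the type V molecule, had 7 and 21 reads, a log2 ratio of -1.50 (95% CI -2.97 to -0.21). Per length, Col5a1 was at 0.226 times Col5a2 in PDR (95% CI 0.0847 to 0.516) and at 0.949 times in SKYD (95% CI 0.505 to 1.77). These intervals overlap. Col27a1, a fibrillar chain best known in cartilage, had 0 reads in PDR and 14 in SKYD and was thus at least 4.39-fold higher in SKYD. Col2a1, the main chain of cartilage, and Col24a1 had 0 reads in both libraries. Of 6 fibrillar chains with at least 10 reads, 5 were beyond 2-fold higher in SKYD and Col5a2 was within 2-fold. The share beyond 2-fold higher in SKYD was 18.4% over all genes with at least 10 reads. Among genes with 10 to 500 reads it was 27.7%.

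Basement membrane chains were few, with 25 reads in PDR and 71 in SKYD, 2.67-fold higher in SKYD (95% CI 1.67 to 4.40). Col4a1 and Col4a2 form the type IV molecule found under endothelium and around smooth muscle. Col4a1 (ENSMUSG00000031502, chr8:11198423-11312826) had 19 reads in PDR and 41 in SKYD, a log2 ratio of -1.02 (95% CI -1.89 to -0.20), just past the 2-fold line. It fell within 2-fold with reads per 1000000 or when centred on the ratios of all genes. Col4a2 had 2 and 19 reads, 8.93-fold higher in SKYD (95% CI 2.15 to 79.0). These genes lie head to head on chromosome 8 and their annotated ends overlap by 22 bases on opposite strands. In the molecule 2 Col4a1 chains join 1 Col4a2 chain, and per length Col4a2 was at 0.523 times Col4a1 in SKYD (95% CI 0.286 to 0.921) and at 0.119 times in PDR (95% CI 0.0134 to 0.492).

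The chains of the kidney and other specialised membranes were at the limit of detection. Col4a4 had 4 reads in PDR and 6 in SKYD, with an interval that includes equal levels, and its head-to-head neighbour Col4a3, 71 bases away on chromosome 1, had 0 and 5. Col4a5 and Col4a6, a head-to-head pair on chromosome X, had 0 reads in both libraries. At this depth a difference in these chains was not detectable.

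Other types summed to 164 reads in PDR and 283 in SKYD, 1.62-fold higher in SKYD (95% CI 1.33 to 1.98). Within them Col18a1 went the other way. Col18a1 (ENSMUSG00000001435, chr10:77052178-77166548) codes for the chain of type XVIII collagen, a basement membrane heparan sulfate proteoglycan whose end is cut off as endostatin. It had 83 reads in PDR and 29 in SKYD, or 0.503 and 0.165 FPKM, a log2 ratio of 1.61 (95% CI 0.98 to 2.27). It was 3.05-fold higher in PDR and made up 21.6% of all collagen reads there, against 3.06% in SKYD. Its span overlaps Slc19a1, a folate carrier gene on the opposite strand with 297 reads in PDR and 200 in SKYD, and the sources used here do not say whether strand was used in counting. Without Col18a1, the log2 ratio of the summed other types was -1.56 in place of -0.70, and that of all chains was -1.52 in place of -1.21. Col15a1, the close relative of Col18a1, had 0 reads in PDR and 9 in SKYD.

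Type VI chains, which form beaded filaments around cells, had 45 reads in PDR and 130 in SKYD, 2.71-fold higher in SKYD (95% CI 1.92 to 3.90). Col6a2 (ENSMUSG00000020241, chr10:76595762-76623630) had 18 reads in PDR and 75 in SKYD, or 0.0920 and 0.360 FPKM, a log2 ratio of -1.97 (95% CI -2.80 to -1.21). Col6a1 (ENSMUSG00000001119, chr10:76708792-76726168) had 20 and 46 reads, or 0.194 and 0.420 FPKM, a log2 ratio of -1.11 (95% CI -1.95 to -0.33). Col6a3, the remaining chain of the common molecule, had 7 and 5 reads, a log2 ratio of 0.58 with an interval from -1.30 to 2.57. Per length Col6a3 stood far below Col6a1, at 0.128 times its FPKM in PDR (95% CI 0.0458 to 0.315) and at 0.0398 times in SKYD (95% CI 0.0123 to 0.0998).

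Fibril-associated chains, which coat fibrils without forming them, had 14 reads in PDR and 88 in SKYD, 5.91-fold higher in SKYD (95% CI 3.34 to 11.2). All 14 PDR reads were on Col14a1 (ENSMUSG00000022371, chr15:55307750-55520803), a chain found along fibrils in skin, tendon and vessel walls. Col14a1 had 51 reads in SKYD, with 0.0850 FPKM in PDR and 0.291 in SKYD and a log2 ratio of -1.78 (95% CI -2.74 to -0.90). Col16a1 had 0 and 23 reads and was higher in SKYD by at least 7.20-fold. Col12a1 had 0 and 11 reads, as did Col8a1, a short chain of vessel walls that forms hexagonal nets. Each was higher in SKYD by at least 3.45-fold at the floor of 3 reads, and by at least 2.36-fold by the exact interval. The membrane-spanning chain Col23a1 was nearly even, with 15 and 14 reads and a log2 ratio of 0.19 (95% CI -0.96 to 1.35).

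**Figure D2:**
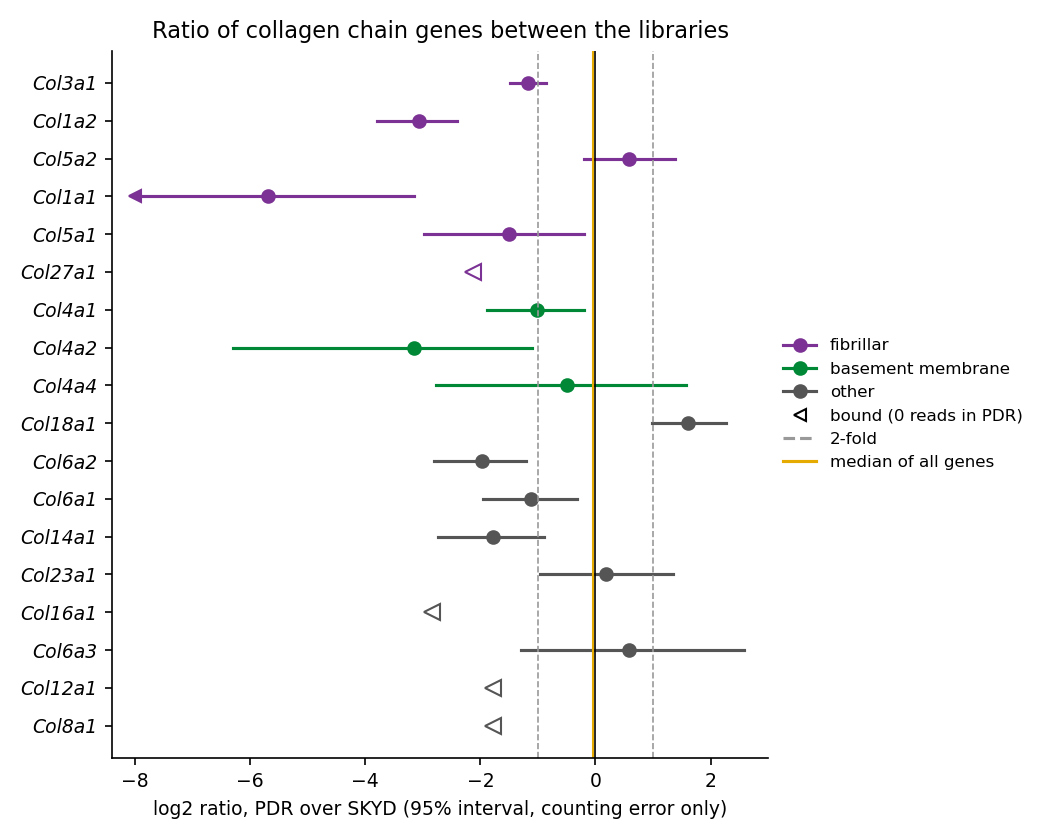
Log2 ratio (PDR over SKYD) of the 18 chains with at least 10 reads, with 95% exact intervals for counting error, coloured by class; open triangles are bounds for chains with 0 reads in PDR, dashed lines mark 2-fold, the yellow line is the median of all genes, and the interval of Col1a1 runs on past the left edge to -11.02. Col18a1 at 1.61 is the 1 chain with its interval wholly above 0, and 13 chains lie to the left of the 2-fold line.

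Among the 12 chains with 1 to 9 reads, the highest count was 9. Besides Col15a1 and Col4a3, Col11a2 had 9 reads and Col7a1, the anchoring fibril chain of skin, had 6, all of them in PDR. Col6a5 had 4 reads in SKYD alone, and Col20a1, Col5a3, Col13a1, Col26a1, Col22a1, Col11a1 and Col25a1 had 1 or 2 reads in all. The 14 chains with 0 reads in both libraries were Col2a1, Col4a5, Col4a6, Col6a4, Col6a6, Col8a2, Col9a1, Col9a2, Col9a3, Col10a1, Col17a1, Col19a1, Col24a1 and Col28a1. They include all 3 type IX chains and type X, which are known mainly from cartilage.

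The make-up of collagen reads differed between the libraries. Col3a1, Col18a1 and Col5a2 held 240 of the PDR reads (62.3%), while Col3a1, Col1a2 and Col6a2 held 553 of the SKYD reads (58.3%). Per 1000000 reads on genes, the fibrillar class stood at 8.49 in PDR (95% CI 7.34 to 9.77) and 23.4 in SKYD (95% CI 21.6 to 25.4), the basement membrane class at 1.08 (95% CI 0.701 to 1.60) and 2.79 (95% CI 2.18 to 3.52), and the other types at 7.10 (95% CI 6.06 to 8.28) and 11.1 (95% CI 9.87 to 12.5). The intervals of the libraries do not overlap in any of the 3 classes.

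**Figure D3:**
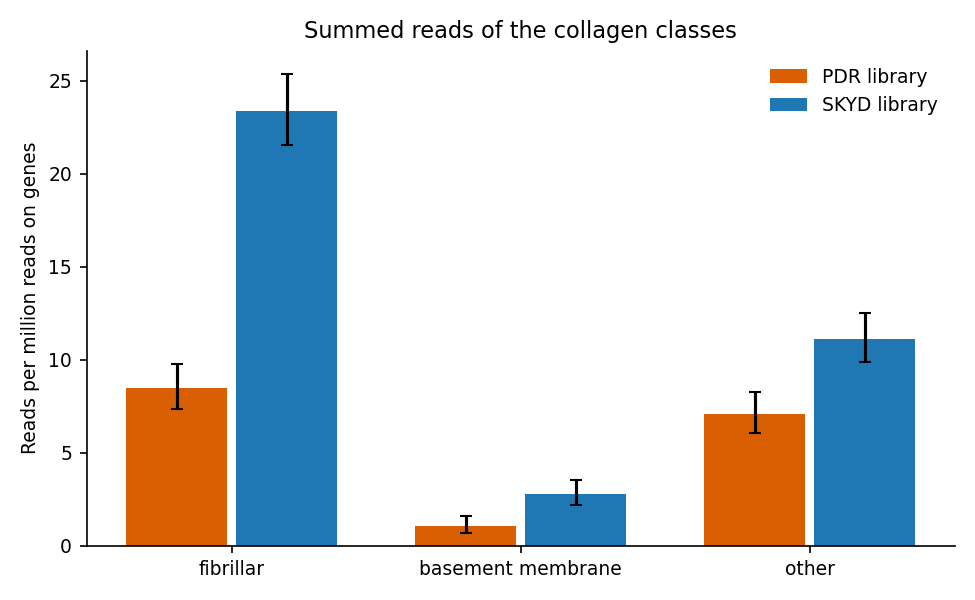
Summed reads of the fibrillar, basement membrane and other collagen chains per 1000000 reads on genes in each library, with exact binomial 95% intervals for counting error. Fibrillar chains reach 8.49 in PDR and 23.4 in SKYD, and the SKYD bar is the higher of the pair in each class.

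RefSeq promoters (GRCm38.p6) were at hand for 35 of the 44 chains, 38 starts in all. Promoters are shown for chains among the 6 with the most reads, where the 250 bases before the start hold no annotated UTR or coding sequence. These were Col3a1 at chr1:45311288-45311537 (+ strand) and Col6a2 at chr10:76623631-76623880 (- strand). The TATA box (TATAAA), the CCAAT box (CCAAT) and the GC box (GGGCGG), which do not contain each other, were searched on both strands, and capitals mark the matches, a TATA box that begins 117 bases before the start of Col3a1 and a GC box, read on the other strand, that begins 175 bases before the start of Col6a2.
Col3a1: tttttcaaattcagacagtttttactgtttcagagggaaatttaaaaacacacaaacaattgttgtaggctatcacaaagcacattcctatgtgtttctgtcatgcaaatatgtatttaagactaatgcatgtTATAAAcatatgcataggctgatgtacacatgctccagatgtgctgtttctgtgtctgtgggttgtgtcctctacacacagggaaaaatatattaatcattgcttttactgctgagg
Col6a2: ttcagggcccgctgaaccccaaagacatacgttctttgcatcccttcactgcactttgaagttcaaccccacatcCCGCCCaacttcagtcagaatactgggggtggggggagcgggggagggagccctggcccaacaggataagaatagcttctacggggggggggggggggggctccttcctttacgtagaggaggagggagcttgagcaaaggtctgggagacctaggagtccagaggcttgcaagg
A match is a description of letters and not a site. Of the 38 collagen starts, 5 (13.2%) had TATAAA, against 12.4% of 32851 promoters of the same length. CCAAT was in 13 (34.2%) against 33.8%, and GGGCGG in 22 (57.9%) against 32.7%.

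Genes that hydroxylate, fold and glycosylate collagen were more often beyond 2-fold higher in SKYD than in PDR. In the list of hydroxylation, folding and glycosylation, 17 genes were measured and 14 had at least 10 reads. Of these 8 (57.1%) were beyond 2-fold higher in SKYD and 0 higher in PDR, with a median log2 ratio of -1.32. Over all genes with at least 10 reads, the shares were 18.4% and 15.0%. The 3 genes with the highest mean FPKM were within 2-fold. P4hb, protein disulfide isomerase and subunit of prolyl 4-hydroxylase, had 161 FPKM in PDR and 171 in SKYD, a log2 ratio of -0.08. Ppib, a prolyl isomerase, had 60.6 and 64.4 FPKM, a log2 ratio of -0.09, and Plod3, a lysyl hydroxylase, had 16.3 and 22.7, a log2 ratio of -0.48. The collagen enzymes Colgalt1 (log2 ratio -0.01), P4ha1 (-0.41) and Plod1 (-0.66) were within 2-fold too, and are named after their values were seen.

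The list's largest ratios were those of Fkbp10 and P3h4. Fkbp10, a chaperone of type I procollagen, had 4 reads in PDR and 68 in SKYD, 16.0-fold higher in SKYD (95% CI 5.96 to 60.3). P3h4, which helps lysyl hydroxylation of the helix, had 12 and 165 reads, 12.9-fold higher in SKYD (95% CI 7.20 to 25.5). Serpinh1, the collagen chaperone HSP47, is named here after its values were seen, with 50 and 318 reads and a log2 ratio of -2.58 (95% CI -3.04 to -2.15).

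Of 10 genes of procollagen processing and export, 7 had at least 10 reads. Of these, 4 (57.1%, against 18.4% of all genes) were beyond 2-fold higher in SKYD and 1 (14.3%, against 15.0%) higher in PDR. The median log2 ratio was -2.83. The summed reads of the list, 2174 in PDR and 2595 in SKYD and mostly on Mia2, gave -0.17 (95% CI -0.25 to -0.08). Mia2 and Mia3, which load procollagen into large transport carriers, were close to even, with 1798 and 1763 reads for Mia2 (log2 ratio 0.12) and 305 and 377 for Mia3 (log2 ratio -0.22). Pcolce, which speeds the trimming of the C-terminal end, had 30 and 262 reads, 8.21-fold higher in SKYD (95% CI 5.61 to 12.4). Its relative Pcolce2 had 10 and 91 reads, 8.55-fold higher in SKYD (95% CI 4.44 to 18.4).

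The proteases that trim the N-terminal end went both ways. Adamts2 had 0 reads in PDR and 43 in SKYD, at least 13.5-fold higher in SKYD. Adamts14, of the same small family, had 24 and 4 reads and was 6.38-fold higher in PDR (95% CI 2.19 to 25.3). Cross-linking enzymes were scarce, with 12 reads in PDR and 52 in SKYD over 5 genes. All 3 that had at least 10 reads were beyond 2-fold higher in SKYD. This compares with 18.4% of all genes and 27.7% of genes with 10 to 500 reads. With 0 reads in PDR, Loxl1 could not fail this count once it passed the filter. Loxl3 had 4 and 19 reads, Loxl2 had 4 and 11, and Loxl1, at 0 and 12, was higher in SKYD by at least 3.76-fold. The interval of Loxl2, a log2 ratio of -1.37 (95% CI -3.48 to 0.38), includes 0.

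Of the 12 genes for matrix proteins that bind collagen, Tgfbi, Dcn, Fn1 and Sparc each had a higher FPKM than all 44 collagen chains summed in both libraries, and the other 8 did not. All 12 had at least 10 reads, 7 (58.3%, against 18.4% of all genes) were beyond 2-fold higher in SKYD and 1 (8.33%, against 15.0%) higher in PDR, with a median log2 ratio of -1.77. Dcn, decorin, which coats fibrils, had 10.03 FPKM in PDR and 39.4 in SKYD, where all 44 collagen chains summed to 2.03 and 4.44 FPKM. Fn1, fibronectin, had 9.21 and 34.2 FPKM, a log2 ratio of -1.89 (95% CI -1.95 to -1.83). Tgfbi, a secreted adhesion protein, was within 2-fold at 64.6 and 77.2 FPKM. The largest ratios were those of Lum, a small proteoglycan of fibrils, with 11 and 130 reads, 11.1-fold higher in SKYD (95% CI 6.01 to 22.8), and Nid2, which links laminin to type IV collagen, with 0 and 32 reads, at least 10.02-fold higher in SKYD. Lamb1, a laminin chain, had 11 and 5 reads, with an interval on the log2 ratio from -0.42 to 3.10 that includes 0, and Lamc1 had 63 and 66.

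Receptors for collagen went both ways. Of 11 receptor and uptake genes, 8 had at least 10 reads, with 2 beyond 2-fold higher in SKYD (25%, against 18.4% of all genes), 3 higher in PDR (37.5%, against 15.0%) and a median log2 ratio of 0.24. Itgb1, the beta subunit of collagen-binding integrins, had 70.9 FPKM in PDR and 50.8 in SKYD. Lair1, an inhibitory collagen receptor of leukocytes, had 31.7 and 12.8 FPKM, a log2 ratio of 1.31 (95% CI 1.24 to 1.38). Mrc1, the mannose receptor, which takes up collagen fragments, had 1.60 and 3.09 FPKM, a log2 ratio of -0.95 (95% CI -1.18 to -0.73).

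The discoidin receptors and an integrin subunit moved in opposite directions. Ddr1 had 24 and 124 reads, 4.86-fold higher in SKYD, and Ddr2 had 10 and 25, 2.35-fold higher in SKYD. Itga1, which pairs with Itgb1 to bind collagen, had 83 and 22 reads, 4.01-fold higher in PDR (95% CI 2.48 to 6.75). Gp6, the collagen receptor of platelets, had 38 and 9 reads, 4.49-fold higher in PDR (95% CI 2.14 to 10.6).

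Reads of genes for C1q outnumbered those of the collagen chains. C1qa, C1qb and C1qc, the chains of complement C1q, which has a collagen-like stalk and is made by macrophages, had 60508 reads in PDR and 169196 in SKYD, 157 and 178 times the reads of all collagen chains. The FPKM of C1qb was 1362 in PDR and 3240 in SKYD, that of C1qc was 391.5 and 1184, and that of C1qa was 325.3 and 920.7. Of 11 genes of this list with at least 10 reads, 5 (45.5%, against 18.4% of all genes) were beyond 2-fold higher in SKYD and 3 (27.3%, against 15.0%) higher in PDR, with a median log2 ratio of -0.26. Fcna, a ficolin of macrophages, had a log2 ratio of -1.82 and C1qc of -1.60, while Mbl1, a mannose-binding lectin of liver, had 1.35 and Adipoq, the hormone of fat cells, had 2.21 from 13 and 3 reads.

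**Figure D4:**
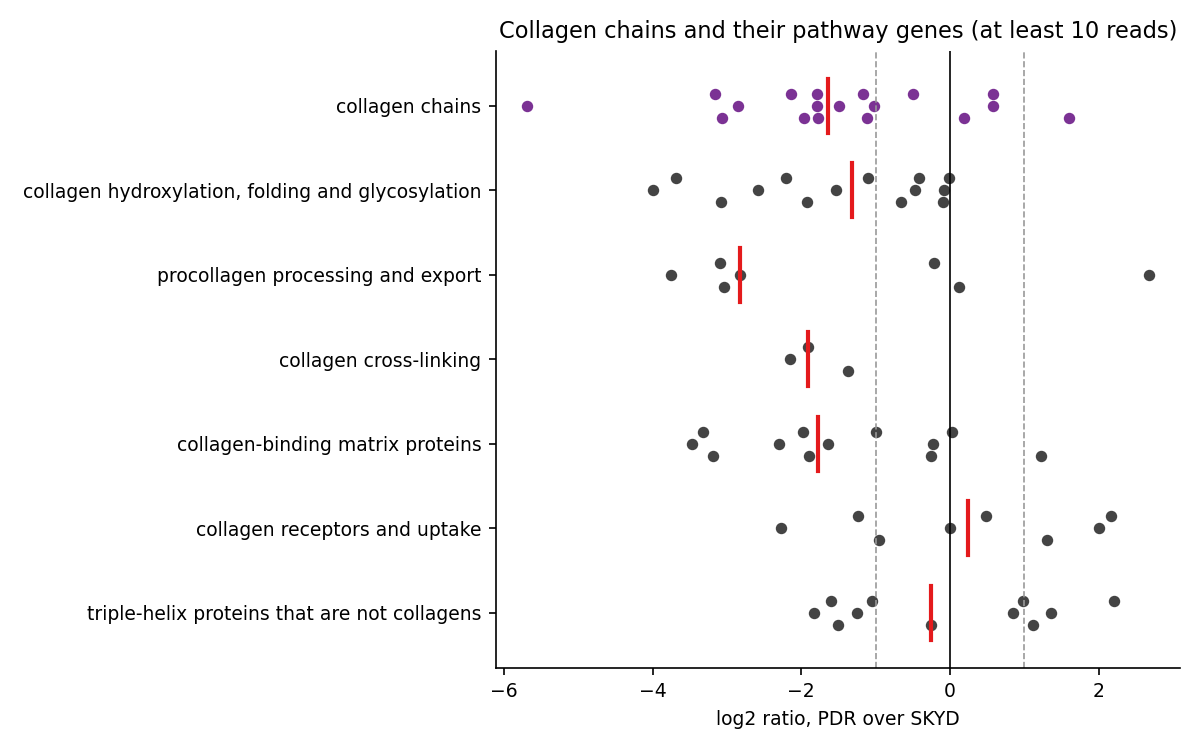
Log2 ratio (PDR over SKYD) of each gene with at least 10 reads, for the 18 collagen chains and the 6 lists of genes that make, process, cross-link, bind or receive collagen or share its helix; red bars are medians, dashed lines mark 2-fold and genes with 0 reads in a library stand at their bound. Medians run from -2.83 for procollagen processing to 0.24 for receptors, with -1.64 for the chains.

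Over all 6 lists, 29 of 55 genes with at least 10 reads (52.7%) were beyond 2-fold higher in SKYD, against 18.4% of all genes with at least 10 reads, and 8 (14.5%) were higher in PDR, against 15.0%. The median log2 ratio was -1.10, against -0.04 over all genes. Over all genes with 10 to 500 reads, 27.7% were beyond 2-fold higher in SKYD and 20.5% higher in PDR. The medians of the making, processing, cross-linking and binding lists lay below -1 as that of the collagen chains did. The median of the receptors lay above 0. By summed reads, the making and processing lists stood nearer to even, at -0.23 and -0.17.

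Markers of macrophages and of cells known to make collagen are given beside these results, with the log2 ratio of their summed reads, and their part in the results was not tested. The shares of all genes against which the counts of markers stand are 18.4% beyond 2-fold higher in SKYD and 15.0% higher in PDR, or 27.7% and 20.5% among genes with 10 to 500 reads. All 8 macrophage genes were present, with 717837 reads in PDR and 1426595 in SKYD, a log2 ratio of -0.90 (95% CI -0.91 to -0.90), the direction of the collagens. Lyz2 gave 686737 and 1359594 of these reads, and without it the sums were 31100 and 67001, a log2 ratio of -1.02. Of the 8 genes 6 were higher in SKYD, Cd14 beyond 2-fold, while Csf1r, with 6620 and 5486 reads, and Fcgr1, with 3155 and 2284, were higher in PDR. The sort marker genes were present too, with 6639 and 7551 reads for Adgre1 and 1043 and 1803 for Itgam. Fibroblast markers summed to 1166 reads in PDR and 2019 in SKYD over 12 genes, a log2 ratio of -0.70 (95% CI -0.81 to -0.60), and none was at 0 in both. Of the 10 with at least 10 reads, 6 (60%) were beyond 2-fold higher in SKYD and 1 (10%) higher in PDR. The most read, Serpinf1, had 711 reads in PDR and 382 in SKYD, against the direction of its list, and without it the sums were 455 and 1637, a log2 ratio of -1.76 (95% CI -1.91 to -1.61). Such sums without a list's most read gene were added after the data were seen. Pdgfra, the marker most used for fibroblasts, had 5 and 20.

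Smooth muscle markers summed to 578 reads in PDR and 324 in SKYD over 9 genes, a log2 ratio of 0.92 (95% CI 0.73 to 1.13), led by Myl9 with 352 and 113. The 4 genes with at least 10 reads were split. Des, with 141 and 55 reads, was higher in PDR as Myl9 was, and Acta2, with 65 and 104, and Smtn, with 18 and 49, were higher in SKYD. Without Myl9 the sums were 226 and 211, a log2 ratio of 0.19 whose interval (95% CI -0.09 to 0.47) includes 0. The defining genes Myh11, Tagln, Cnn1 and Lmod1 had 0 reads in both libraries. Pericyte and stellate cell markers had 97 and 63 reads over 7 genes, led by Reln with 69 and 16, with Hand2 at 0. Without Reln the sums were 28 and 47, a log2 ratio of -0.66 whose interval (95% CI -1.39 to 0.05) includes 0. Endothelial markers summed to 174 and 179 reads over 10 genes, led by Vwf, and none was at 0 in both libraries. Of the 9 with at least 10 reads, 2 were beyond 2-fold higher in PDR, Tek with 14 and 1 reads and Cdh5 with 30 and 9, and 2 were higher in SKYD, Tie1 with 1 and 14 and Emcn with 0 and 10. This is 22.2% each way, near the shares of all genes.

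Mesothelial markers had 1133 reads in PDR and 3097 in SKYD over 8 genes, a log2 ratio of -1.36 (95% CI -1.46 to -1.26), led by Krt8 with 196 and 872. Of the 7 with at least 10 reads, 5 (71.4%) were beyond 2-fold higher in SKYD and 2 were within 2-fold. Epithelial markers had 349 and 858 reads over 6 genes, a log2 ratio of -1.21 (95% CI -1.39 to -1.03), led by Epcam. Without Epcam the sums were 70 and 512, a log2 ratio of -2.78 (95% CI -3.16 to -2.42). None of these genes was at 0 in both libraries, and keratins are shared by mesothelial and epithelial cells. Adipocyte markers had 38 and 93 reads over 6 genes, led by Cidec, with Lep and Plin4 at 0. The 4 with at least 10 reads were split. Cidec, with 15 and 42 reads, and Cfd, with 0 and 36, were beyond 2-fold higher in SKYD (50%). Adipoq, with 13 and 3, was beyond 2-fold higher in PDR (25%), and Plin1, with 10 and 12, was within 2-fold. Bone and cartilage markers had 279 and 187 reads over 14 genes, of which Alpl gave 237 and 36. Of the 6 with at least 10 reads, 3 (50%) were beyond 2-fold higher in SKYD and 1 (16.7%) higher in PDR, the second near the share of all genes, and without Alpl the sums were 42 and 151, a log2 ratio of -1.76 (95% CI -2.29 to -1.25). The genes Sp7, Bglap, Bglap2, Ibsp, Acan, Matn1 and Hapln1 were at 0 in both libraries.

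Hepatocyte markers were far above the collagens in number, and platelet markers were so only with Pf4 included. Hepatocyte genes had 51867 reads in PDR and 17357 in SKYD, led by Alb, and all 8 were beyond 2-fold higher in PDR. Platelet genes had 4563 and 26728 reads over 6 genes, mostly from Pf4 with 3690 and 26049, and Gp1bb was at 0. Pf4 was the 1 gene higher in SKYD among the 5 with at least 10 reads, and without it the sums were 873 and 679, a log2 ratio of 0.45 (95% CI 0.31 to 0.60).

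**Figure D5:**
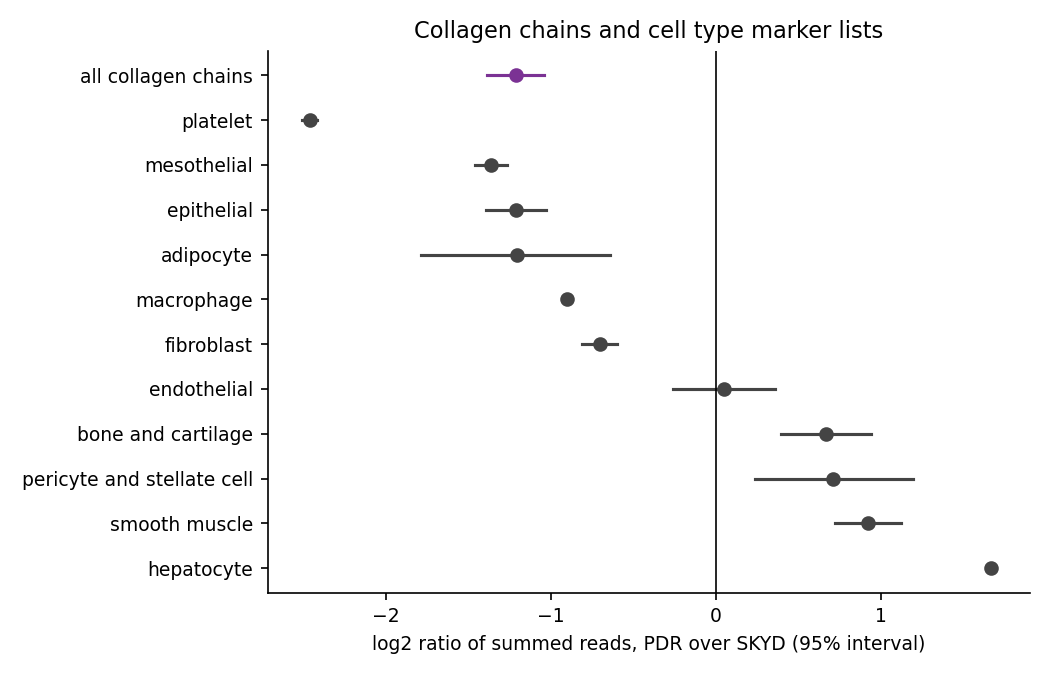
Log2 ratio (PDR over SKYD) of summed reads for all collagen chains and for 11 cell type marker lists, with exact 95% intervals for counting error, some of them narrower than the point. Collagen chains stand at -1.21, and the lists run from platelet (-2.46) to hepatocyte (1.67) markers; single genes weigh heavily in some sums, and without their most read gene smooth muscle markers stand at 0.19 in place of 0.92, epithelial at -2.78 in place of -1.21 and platelet at 0.45.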

How the data were processed

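RNA of sorted macrophages was sequenced in 1 pooled library per group. The authors aligned reads with TopHat, counted them per gene with HTSeq and deposited FPKM for 54532 genes, and the submitters' notes name TopHat2 2.0.9, Bowtie2 2.0.6, HTSeq 0.6.1 and the build mm9. The deposited positions were nevertheless those of GENCODE vM21 on GRCm38 for all 44 chains and for 53499 of 54409 shared genes, so GRCm38 coordinates are given. Whether strand was used in counting was not given in the sources used here.

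Reads were recovered as FPKM times length divided by the worth of 1 read in each library, found from the lowest values. The size behind FPKM was 23487992 in PDR and 24993633 in SKYD. The 3 reads that a count of 0 allows are 1.3e-05% of PDR reads and 1.18e-05% of SKYD reads. No p-value was computed. As a second count, log2(FPKM + 1) was compared above a filter of 1 on mean FPKM, which no chain passed. Collagen chains, classes, 6 pathway lists and 11 cell type lists were chosen with earlier results of these data known, and 1 further cell type list and 1 marker gene are not reported here. Named were all chains with at least 10 reads, of each pathway list the 3 genes of highest mean FPKM and the 2 of largest ratio each way, and of each cell type list the most read gene. Others, such as sort markers, genes at 0, Serpinh1, Pdgfra and Slc19a1, were named after their values were seen. Adipoq is in a pathway and a cell type list. The steps were tested on simulated data. Tools were matplotlib 3.10.9, scipy 1.17.1, pandas 2.3.3, numpy 2.4.6 and Python 3.11.15.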

Additional observations from a re-analysis of the deposited data

How the results depend on the processing

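For the collagen chains, 27 alternatives gave a summed or median log2 ratio, and each stayed below 0. Of the 21 for summed ratios, 17 lay within the 95% interval of the value reported, and the 6 for the median ran from -1.64 to -1.33. The exceptions among the sums left out a chain. Without Col3a1 the fibrillar sum was -1.95, without Col4a1 the basement membrane sum was -2.23, without Col18a1 the sum of other types was -1.56, and without Col18a1, an alternative chosen after the data were seen, the sum of all chains was -1.52. With reads per 1000000, or centred on the median or the trimmed mean ratio of all genes, 12 in place of 13 chains were beyond 2-fold higher in SKYD. The chain lost was Col4a1, and all genes shifted by at most 0.05 in log2 size. Beyond 4-fold, 5 chains were higher in SKYD, against 1503 of 16703 genes, and 0 in PDR, against 1131 (6.77%). With intervals wholly beyond 2-fold the counts were 8 and 0, and the 8 include the chains at 0 PDR reads, which could not fail this rule. With at least 5 reads, 3 of 22 chains (13.6%) were beyond 2-fold higher in PDR in place of 1, against 15.7% of all genes. In log2(FPKM + 1), the counts of 0 chains beyond 2-fold test nothing, since no chain passed the filter of 1 on mean FPKM and, with no filter, a value under 1 FPKM, as all but Col3a1 in SKYD were, cannot reach 2-fold. The count was 7 with no filter and a pseudocount of 0.1, chosen after the data were seen. It takes both directions together and includes Col18a1, which was higher in PDR. No share of all genes is given for this setting, so the count is not read as a result about the chains. Of 11 marker list sums, 3 changed direction without the list's most read gene, to -0.66 for pericyte and stellate cell, -1.76 for bone and cartilage and 0.45 for platelet markers.

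No paired analysis was possible because each group had 1 library. With 385 and 949 collagen reads, depth limits single chains, and 0 reads in PDR allow a true level of up to 3. Intervals leave out the spread between mice, and levels of collagen protein were not analysed here.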

Other observations

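Decorin alone had more reads than all collagen chains together in each library. Dcn had 1375 reads in PDR and 5747 in SKYD, while Col1a1 had 1 and 55 and Col3a1 had 122 and 291. Among fibroblast genes, Clec3b had 1 read in PDR and 81 in SKYD, and Pi16 had 267 and 452. Cygb, with 30 and 10 reads, and Serpinf1, with 711 and 382, were higher in PDR, and Mfap4 had 19 in each library. The fibroblast gene Mfap5, an elastic microfibril protein, had 73 and 721 reads, a log2 ratio of -3.21 (95% CI -3.58 to -2.87). Sparc, a collagen-binding protein, had 187 and 1817 reads, 9.13-fold higher in SKYD (95% CI 7.85 to 10.7). The genes of this section were picked once their values were known.

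Among the genes known from cartilage that are named here, some had more reads in SKYD and others were even, had more in PDR or had 0. Comp, cartilage oligomeric matrix protein, had 0 reads in PDR and 38 in SKYD, at least 11.9-fold higher in SKYD, and Matn3 had 0 and 14, at least 4.39-fold higher, as for Col27a1 with 0 and 14. Cilp, cartilage intermediate layer protein, had 5 and 33, 6.20-fold higher in SKYD (95% CI 2.41 to 20.4), and Sox9 had 8 in each library. Under 10 reads in all, Col11a2 had 9 reads in PDR and 0 in SKYD, and Col11a1 had 1 and 0. The cartilage collagens Col2a1, Col9a1, Col9a2, Col9a3 and Col10a1, and the cartilage genes Acan, Matn1 and Hapln1, had 0 reads in both libraries.

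Krt14, a keratin of basal epithelium, had 0 reads in PDR and 209 in SKYD, at least 65.5-fold higher in SKYD, and Cdh1 had 0 and 53, at least 16.6-fold higher. Krt14 alone had more reads in SKYD than Col1a2, which had 187. Col17a1, the chain that anchors basal epithelial cells, had 0 reads in both libraries, and Col7a1 had 6 reads in PDR and 0 in SKYD.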
